A study of Mus musculus with 5 samples.

Results

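The genes described here are those of the BCL2 family, which governs survival and death of cells at the mitochondrion. They were taken as all probe sets on the arrays whose annotation names 1 of 10 genes and no other: the pro-survival genes *Bcl2*, *Bcl2l1*, *Bcl2l2* and *Mcl1*, the effectors *Bax* and *Bak1*, and the BH3-only genes *Bad*, *Bid*, *Bcl2l11* and *Bbc3*. Of these, 9 genes were named by 32 of the 45101 probe sets, out of 18194 genes that the annotation names in all. No probe set in the annotation used here named *Bax* and no other gene, so *Bax* was not analysed here. A probe set is a group of short probes that read 1 stretch of a transcript, so a gene with several probe sets has several readings that need not be equal.

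RNA was taken from optic nerves of C57BL/6 mice of P35 to P45, exposed for 3 days in organotypic culture to LY294002, which inhibits PI3K. The comparison is between 3 arrays of the low dose (L-LY29, 0.5 µM in the labels) and 2 arrays of the high dose (H-LY29, 50 µM), and asks how the 2 doses differ. All nerves were severed, cultured and exposed to the compound, which the labels name LY294002 in titles and LY295002 in treatment entries, taken here as the same. The study's text gives another low dose for adult nerves than the labels do, and which of them these arrays received was not settled here. Control arrays were not analysed here, so no value says how either dose differed from untreated nerve. The sources used here do not tell which mice or nerves went to which array, so each p-value rests on the spread among these 5 arrays alone, which may be technical.

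As background, pro-survival members such as BCL2 bind and restrain the effectors BAX and BAK. BH3-only proteins sense stress or loss of growth factors, occupy the pro-survival proteins and so release the effectors, which then open the outer mitochondrial membrane to let cytochrome c out. PI3K and its kinase Akt act on this balance: Akt phosphorylates BAD, which is then held by 14-3-3 proteins, and phosphorylates FoxO factors, which otherwise enter the nucleus and can raise transcription of *Bcl2l11* (BIM) and *Bbc3* (PUMA). Survival of newly formed oligodendrocytes, the myelin-forming cells of the optic nerve, depends on such signals. The arrays measured RNA and neither phosphorylation nor cell death.

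Values are log2 signals. A difference is the L-LY29 mean less the H-LY29 mean on that scale, so that 1 unit is a doubling of the signal. The doses were compared by limma over 45037 probe sets, and a probe set or gene was called higher or lower in L-LY29 at a Benjamini-Hochberg adjusted p under 0.05. Calls were common on these arrays. Of all probe sets tested, 58.9% were called, 28.6% higher and 30.3% lower, and in 72.3% the 3 L-LY29 arrays were all above or all below the H-LY29 arrays. Counts among the BCL2 family are read against these shares.

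The median signal of an array was 5.33 to 5.35 at the low dose and 5.54 to 5.56 at the high dose. Poly-A control RNAs (24 probe sets), which the standard Affymetrix protocol adds before labelling, averaged 9.97 to 10.45 on the L-LY29 arrays but 3.17 on both H-LY29 arrays, where the highest single value was 4.30. These controls split fully by dose. A difference in sample preparation that went with them cannot be told apart from dose in any difference reported here. Oligodendrocyte markers, which check the tissue, had a mean level of 11.79 to 11.88 in L-LY29 and of 11.93 to 12.02 in H-LY29, and 4 of 9 were called higher and 4 lower. Markers of other cells differed between the doses as well. Of 6 fibroblast markers, 6 were lower in L-LY29 (mean level 7.52 to 8.23 against 10.85 to 11.17), and of 8 astrocyte markers 4 were lower and 1 higher (9.31 to 10.0003 against 10.93 to 11.06). Of 7 microglial markers 5 were higher and 2 lower (9.30 to 9.38 against 8.64 to 8.86), and of 7 epithelial markers 5 were higher (7.20 to 9.43 against 4.32 to 4.82). Progenitor markers were lower in 3 of 6 while 3 did not pass, at 6.61 to 6.91 against 7.38 to 7.82. Of 6 endothelial markers 3 were higher and 1 lower (7.08 to 7.49 against 6.55 to 6.70), of 5 neuron and photoreceptor markers 4 were higher (7.15 to 7.23 against 5.72 to 5.88), and of 2 T cell and neutrophil markers 1 was higher and 1 lower (5.85 to 6.58 against 6.71 to 6.81). In whole nerve, fewer cells of a type and less RNA per cell cannot be told apart, and the part of these cell types in any value below was not tested.

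Among the 32 BCL2 family probe sets, 8 were called higher and 13 lower at the low dose, and 11 did not pass. Their median difference was −0.17, where that of all probe sets was 0.01. The doses did not overlap in 25 of the 32, and in 72.3% of all probe sets. The count called higher is near the share among all probe sets and the count called lower is above it, and neither is a result about the family as such. With the brightest probe set standing for its gene, *Bcl2l2* and *Bbc3* were higher, *Bcl2*, *Mcl1*, *Bak1*, *Bad* and *Bcl2l11* lower, and *Bcl2l1* and *Bid* did not pass. These are 2 higher and 5 lower of 9, where 27.1% of all 12935 tested genes were higher and 46.6% lower. The median was −0.64 over the 9 genes and −0.26 over all genes. The split among probe sets leans on the scale of the arrays. Setting array medians equal moved the median of all probe sets from 0.01 to 0.23, the share of higher among all called probe sets from 48.6% to 63.4%, and the family's calls to 11 higher and 10 lower. For all genes, the share of higher among called genes was 36.8% as deposited, 52.1% after quantile normalization and 47.2% with equal array medians. The split of the family's genes moved little. It was 3 higher and 4 lower with equal array medians, and 2 higher and 4 lower after quantile normalization.

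**Figure D1:**
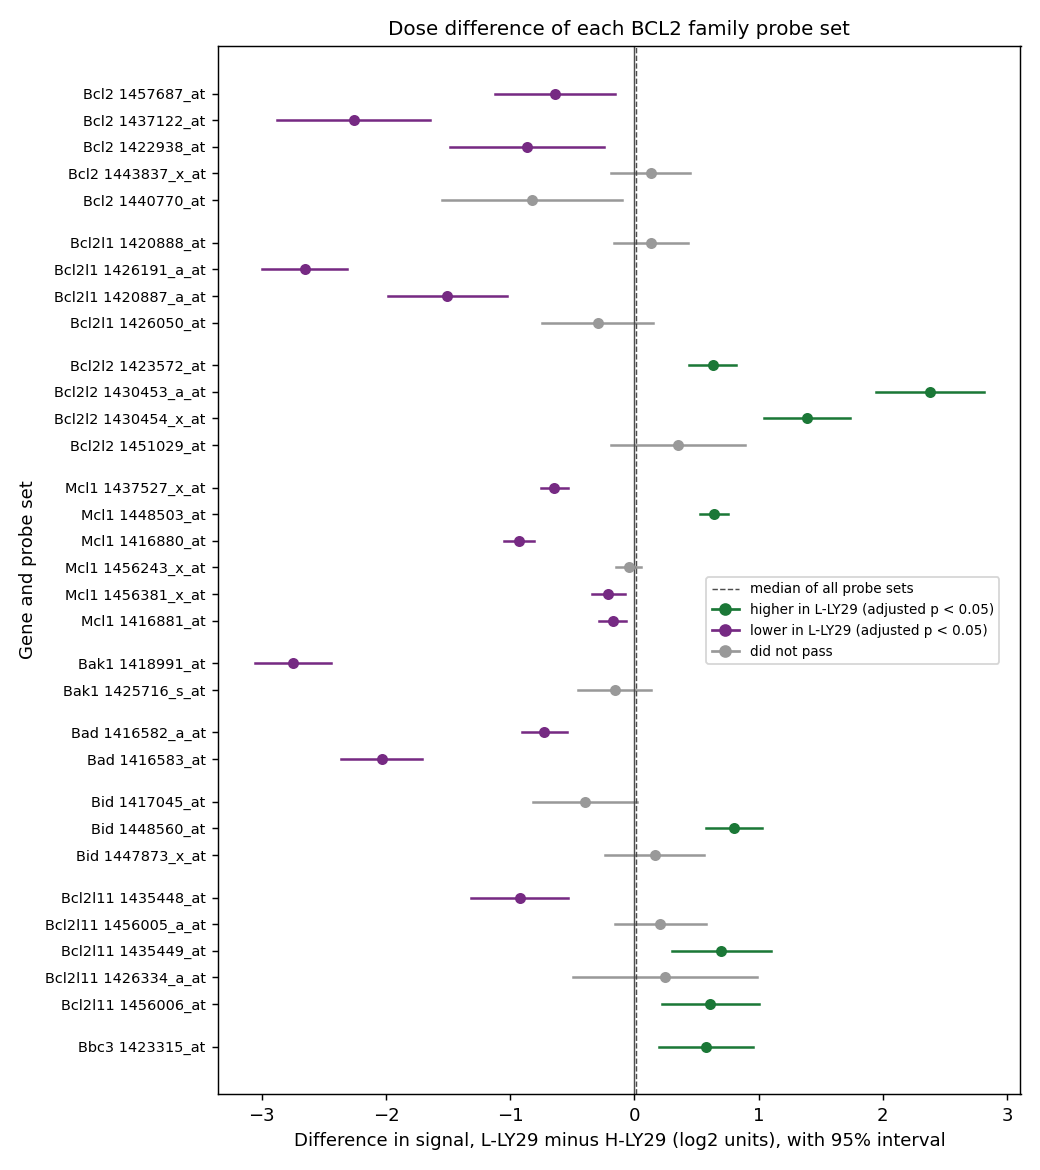
Difference in log2 signal, L-LY29 minus H-LY29, of each of the 32 BCL2 family probe sets (points) with its 95% interval from the limma fit (lines), grouped by gene, with the median of all probe sets as a dashed line. Green points are higher in L-LY29 (8), purple points lower (13), and grey points did not pass (11).

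The pro-survival genes did not move together. *Bcl2* and *Bcl2l1* had called probe sets that were all lower in L-LY29, *Bcl2l2* had called probe sets that were all higher, and *Mcl1* had both. Over these 4 genes, 4 of 19 probe sets were higher, 9 lower and 6 not past the test, with a median difference of −0.21. Over all probe sets, 28.6% were higher and 30.3% lower.

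*Bcl2*, the founding pro-survival member, was lower in L-LY29 on 3 of its 5 probe sets. Probe set 1437122_at read 5.10, 5.35 and 5.80 on the L-LY29 arrays and 7.76 and 7.59 on the H-LY29 arrays. Every L-LY29 array lay well below both H-LY29 arrays, and the mean was 5.42 ± 0.36 (SD, n = 3) against 7.67 ± 0.12 (SD, n = 2). The difference was −2.26 (standard error 0.23, 95% interval −2.87 to −1.64, adjusted p = 0.00142), a signal 4.78-fold higher in H-LY29. The brightest *Bcl2* probe set, 1457687_at, read 6.41, 6.81 and 6.93 against 7.45 and 7.26. Its arrays too were apart by dose, by a smaller step, at −0.64 (standard error 0.18, adjusted p = 0.0369), and after quantile normalization that step was −0.10 and did not pass. Probe set 1422938_at read 5.54, 5.91 and 5.91 against 6.95 and 6.36, a difference of −0.86 (standard error 0.23, adjusted p = 0.0309). The calls of these 2 probe sets were often lost. That of 1457687_at was lost in 9 of 15 alternative settings, among them without H-LY29 replicate 1 (adjusted p = 0.199), H-LY29 replicate 2 (0.124) or L-LY29 replicate 2 (0.0841). That of 1422938_at was lost in 8 of 14, among them without H-LY29 replicate 1 (adjusted p = 0.133) or any 1 L-LY29 array (0.0736 to 0.0854). The remaining *Bcl2* probe sets were dim. Probe set 1440770_at, at −0.82 (95% interval −1.55 to −0.10, adjusted p = 0.0560), had an H-LY29 mean of 4.04, no higher than poly-A controls reached there. Probe set 1443837_x_at differed by 0.13 (adjusted p = 0.382).

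*Bcl2l1* encodes BCL-XL, a pro-survival protein abundant in nervous tissue, and its probe sets did not give 1 answer. The brightest, 1420888_at, read 10.61, 10.53 and 10.63 in L-LY29 and 10.28 and 10.62 in H-LY29. The doses overlapped, and the interval of the difference, 0.13, ran from −0.17 to 0.43. Probe set 1426191_a_at read 8.05, 7.94 and 8.29 against 10.66 and 10.83. Here every L-LY29 array was far below both H-LY29 arrays, at a difference of −2.65 (standard error 0.13, 95% interval −2.9976 to −2.31, adjusted p = 2.24e-04) or 6.29-fold. Probe set 1420887_a_at went the same way, with 8.60, 8.41 and 8.78 against 9.89 and 10.32, at −1.50 (standard error 0.18, adjusted p = 0.00228). The suffix of these 2 marks probes that can read several transcripts of the gene. The dim 1426050_at differed by −0.30 (95% interval −0.74 to 0.15). Which transcript each probe set reads was not tested, and the gene's call turns on the choice: the mean of those of its probe sets that passed a filter on low values was −1.34 and passed the test.

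*Bcl2l2*, which encodes BCL-W, a pro-survival protein known from neurons and axons, was higher in L-LY29 on 3 of 4 probe sets. Its brightest, 1423572_at, read 11.59, 11.58 and 11.59 in L-LY29 and 10.85 and 11.06 in H-LY29, a difference of 0.63 (standard error 0.07, adjusted p = 0.00183). The L-LY29 arrays were nearly equal and all above both H-LY29 arrays. Probe set 1430453_a_at read 8.13, 8.05 and 7.67 against 5.53 and 5.61, means of 7.95 ± 0.24 (SD, n = 3) and 5.57 ± 0.06 (SD, n = 2). Its difference of 2.38 (standard error 0.16, 95% interval 1.95 to 2.82, adjusted p = 4.75e-04), 5.21-fold, was the largest towards L-LY29 among the 32 probe sets. Probe set 1430454_x_at read 7.46, 7.36 and 7.27 against 6.13 and 5.82, at 1.39 (standard error 0.13, adjusted p = 0.00109). On the fourth, 1451029_at, 2 L-LY29 arrays and 1 H-LY29 array shared the value 5.58, and the difference of 0.35 did not pass (95% interval −0.19 to 0.89).

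*Mcl1*, a short-lived pro-survival protein whose loss is quickly felt by the cell, was read by 6 bright probe sets. The doses did not overlap in any of the 6, yet the direction differed. Probe set 1416880_at read 10.90, 10.85 and 10.94 in L-LY29 and 11.79 and 11.86 in H-LY29, a difference of −0.93 (standard error 0.05, adjusted p = 2.28e-04). Probe set 1437527_x_at read 11.36, 11.36 and 11.35 against 11.95 and 12.04, at −0.64 (standard error 0.04, adjusted p = 3.89e-04). Probe set 1448503_at went the other way, with 11.77, 11.68 and 11.70 against 11.07 and 11.08, at 0.64 (standard error 0.04, adjusted p = 4.14e-04). These 3 steps were each many times the spread within a dose. The calls of 1456381_x_at, at −0.21, and 1416881_at, at −0.17, were lower as deposited but 0.00304 and 0.04 with equal array medians, so their direction rests on the scaling. Probe set 1456243_x_at differed by −0.05 (95% interval −0.14 to 0.05). The gene was lower by its brightest probe set, 1437527_x_at, and higher, at 0.64 or 0.65, when H-LY29 replicate 1 or 2 was left out, since 1448503_at was then the brightest.

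**Figure D2:**
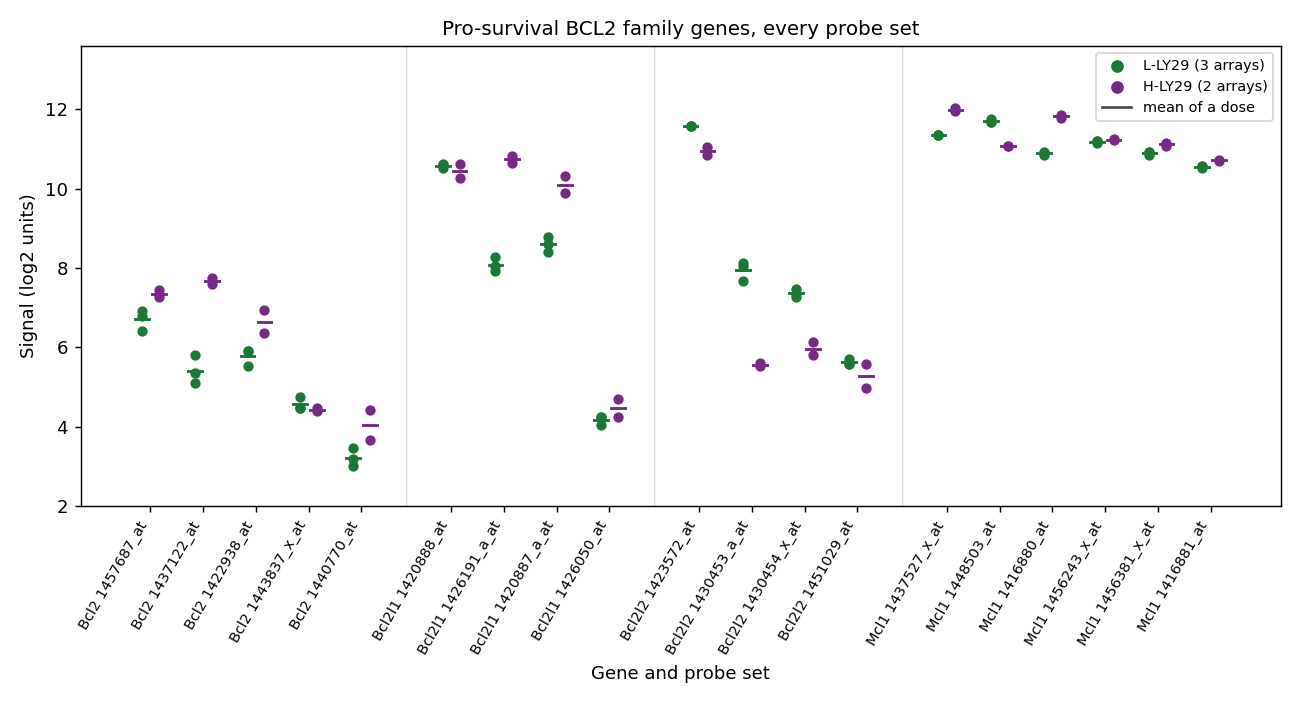
Log2 signal of every probe set of *Bcl2*, *Bcl2l1*, *Bcl2l2* and *Mcl1* on each L-LY29 array (green points, n = 3) and H-LY29 array (purple points, n = 2), with short lines at the dose means. *Bcl2l2* 1430453_a_at lies near 7.95 (L-LY29) and 5.57 (H-LY29), and *Bcl2l1* 1426191_a_at near 8.09 and 10.74. Heights of different probe sets are not comparable with each other.

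*Bak1*, the effector measured here, was lower in L-LY29 by the largest difference among the 32 probe sets. BAK sits in the outer mitochondrial membrane and forms the pore. Probe set 1418991_at read 6.19, 6.17 and 5.93 on the L-LY29 arrays and 8.78 and 8.91 on the H-LY29 arrays. The means were 6.10 ± 0.14 (SD, n = 3) and 8.85 ± 0.10 (SD, n = 2), with no array near those of the other dose. The difference was −2.75 (standard error 0.12, 95% interval −3.06 to −2.44, adjusted p = 1.75e-04), 6.73-fold. The other *Bak1* probe set, 1425716_s_at, whose suffix marks probes that may also match other transcripts, read 4.91 to 4.99 in L-LY29 and 4.99 and 5.25 in H-LY29. It differed by −0.16 (95% interval −0.45 to 0.14), and by 0.05 with equal array medians.

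Of the 11 probe sets of the 4 BH3-only genes, 4 were higher, 3 lower and 4 did not pass, at a median of 0.21. Among all probe sets, 28.6% were higher and 30.3% lower, so both directions are not particular to these genes. *Bad* was lower on all its probe sets, *Bbc3* was higher on its 1 probe set, *Bid* was higher on 1 of 3, and *Bcl2l11* was called in both directions.

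*Bad*, the BH3-only protein that Akt phosphorylates, was lower in L-LY29 on both of its probe sets. Probe set 1416583_at read 7.13, 7.15 and 7.42 against 9.34 and 9.19, means of 7.23 ± 0.16 (SD, n = 3) and 9.27 ± 0.11 (SD, n = 2). The difference was −2.03 (standard error 0.12, 95% interval −2.36 to −1.71, adjusted p = 3.51e-04), 4.09-fold. Probe set 1416582_a_at read 8.33, 8.30 and 8.39 against 9.01 and 9.12, at −0.72 (standard error 0.07, adjusted p = 0.00107). Both readings put every L-LY29 array below both H-LY29 arrays and differed from each other in size.

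*Bid*, which caspase-8 cleaves to carry a death receptor signal to the mitochondrion, had no clear direction. Probe set 1448560_at read 5.63, 5.71 and 5.63 against 4.91 and 4.80, at 0.80 (standard error 0.09, adjusted p = 0.00159). The brighter 1417045_at read 6.45, 6.85 and 6.77 against 7.20 and 6.98, with no overlap, at −0.40 (95% interval −0.82 to 0.02, adjusted p = 0.0912). After quantile normalization it was 0.15. Probe set 1447873_x_at had means of 3.15 and 2.98, as dim as the poly-A controls of H-LY29, and did not pass.

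*Bcl2l11* and *Bbc3* are the members known as FoxO targets, so the start of each gene was searched for the core of the FoxO binding element, TAAACA, on both strands. The windows, 250 bases before to 50 bases after each RefSeq start on GRCm38.p6, numbered 15 for the 9 genes. The core was in 2 of the 15, 1 of *Bcl2l11* and 1 of *Bbc3*, and in 13.4% of all 32851 windows. The 250 bases before these starts, chr2:128125788-128126037 and chr7:16310011-16310260, both on the plus strand, are printed with the core in capitals. In *Bcl2l11* it begins 226 bases before the start on the plus strand, and in *Bbc3* it lies on the minus strand with its leftmost base 167 bases before the start, where it reads as TGTTTA.
Bcl2l11: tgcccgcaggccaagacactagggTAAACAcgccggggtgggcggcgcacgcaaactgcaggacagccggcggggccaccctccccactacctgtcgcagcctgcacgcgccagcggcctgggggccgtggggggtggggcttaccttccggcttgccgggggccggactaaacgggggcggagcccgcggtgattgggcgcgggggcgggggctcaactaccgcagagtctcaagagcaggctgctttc
Bbc3: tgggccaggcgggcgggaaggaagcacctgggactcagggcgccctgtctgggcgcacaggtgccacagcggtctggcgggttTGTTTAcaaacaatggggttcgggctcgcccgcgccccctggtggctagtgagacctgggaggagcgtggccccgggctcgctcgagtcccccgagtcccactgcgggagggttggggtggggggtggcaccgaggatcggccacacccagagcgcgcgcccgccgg
A match of these letters is a description and not a site of binding, which was not measured here.

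*Bcl2l11*, which encodes BIM, was called lower on its brightest probe set and higher on dimmer ones. Probe set 1435448_at read 7.49, 7.90 and 7.63 in L-LY29 and 8.68 and 8.51 in H-LY29, a difference of −0.92 (standard error 0.15, 95% interval −1.31 to −0.53, adjusted p = 0.00578). Probe set 1435449_at read 6.20, 6.28 and 6.10 against 5.69 and 5.30, at 0.70 (standard error 0.15, adjusted p = 0.0151). Probe set 1456006_at read 5.05, 5.13 and 5.12 against 4.70 and 4.28, at 0.61 (standard error 0.15, adjusted p = 0.0214). Its lower H-LY29 value was no higher than poly-A controls reached there. In each of the 3 the doses were apart, in opposite directions. The calls did not all hold with 1 array left out. That of 1435448_at was lost without H-LY29 replicate 1 (adjusted p = 0.0614), that of 1435449_at without L-LY29 replicate 1 (0.0550) or replicate 2 (0.0571), and that of 1456006_at without any 1 of the L-LY29 arrays (0.0610 to 0.0743). Probe sets 1456005_a_at, at 0.21 (95% interval −0.16 to 0.57), and 1426334_a_at, at 0.24 (adjusted p = 0.482), did not pass. The gene's difference was −0.92 by its brightest probe set and 0.17 by the mean of all 5.

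*Bbc3*, which encodes PUMA and answers to p53 as well as FoxO, was read by probe set 1423315_at alone. It gave 7.23, 7.10 and 7.10 in L-LY29 and 6.37 and 6.76 in H-LY29, so that the H-LY29 arrays differed from each other by most of the step between doses. The means were 7.14 ± 0.07 (SD, n = 3) and 6.56 ± 0.28 (SD, n = 2), and the difference was 0.58 (standard error 0.14, 95% interval 0.20 to 0.96, adjusted p = 0.0240). In the fit of all probe sets the call was lost when any 1 of the L-LY29 arrays was left out, at adjusted p of 0.0796 without replicate 1, 0.0687 without replicate 2 and 0.0709 without replicate 3.

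**Figure D3:**
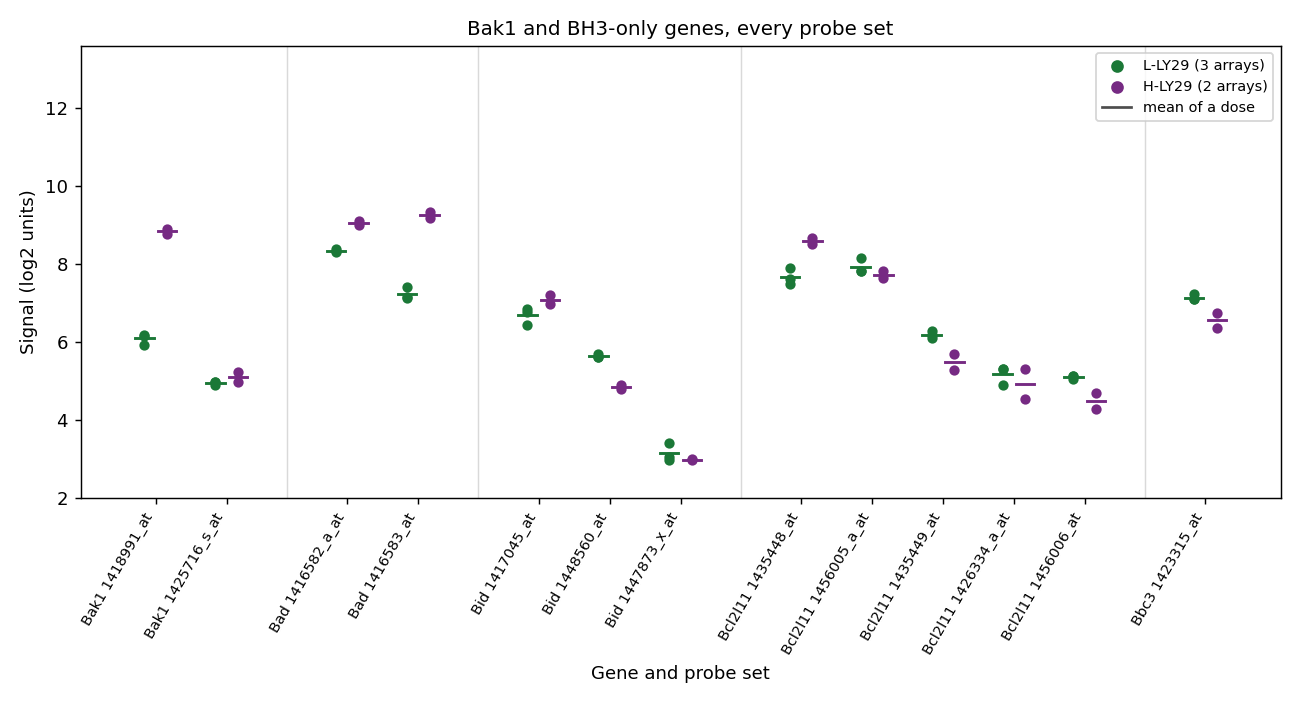
Log2 signal of every probe set of *Bak1*, *Bad*, *Bid*, *Bcl2l11* and *Bbc3* on each L-LY29 array (green points, n = 3) and H-LY29 array (purple points, n = 2), with short lines at the dose means. *Bak1* 1418991_at lies near 6.10 (L-LY29) and 8.85 (H-LY29), and *Bbc3* near 7.14 and 6.56. Heights of different probe sets are not comparable with each other.

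Probe sets of 1 gene that go both ways were frequent on these arrays. Where a gene had at least 2 called probe sets (5206 genes), these went both ways in 45.2%, and of the 6 such BCL2 family genes *Mcl1* and *Bcl2l11* did. The sequence that each probe set reads was not analysed here. For actin, the signal at the 3′ end less that at the 5′ end was 0.43 at the low dose and 0.92 at the high dose, for *Gapdh* it was −0.13 and 0.69, and for *Pcx* it was 2.14 and 3.76. This measure of labelling and RNA quality moved with dose, and its part in the opposed readings was not tested. On 13 of the 32 probe sets at least 2 arrays shared an identical value, as for 1451029_at above.

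Calls that were kept in all 15 alternative settings, among them each array left out and both rescalings, were those of *Bcl2* 1437122_at, *Bcl2l1* 1426191_a_at and 1420887_a_at, *Bcl2l2* 1430453_a_at and 1430454_x_at, *Bak1* 1418991_at and *Bad* 1416583_at. Since a difference over 1 log2 unit was one of the settings, smaller differences could not be among them, and 2 were higher and 5 lower. Apart from that setting and the replicate number as a block, 13 of the 21 calls were kept throughout. Of the 21 called probe sets 19 kept their direction in every setting, and the exceptions were the *Mcl1* probe sets 1456381_x_at and 1416881_at.

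**Figure D4:**
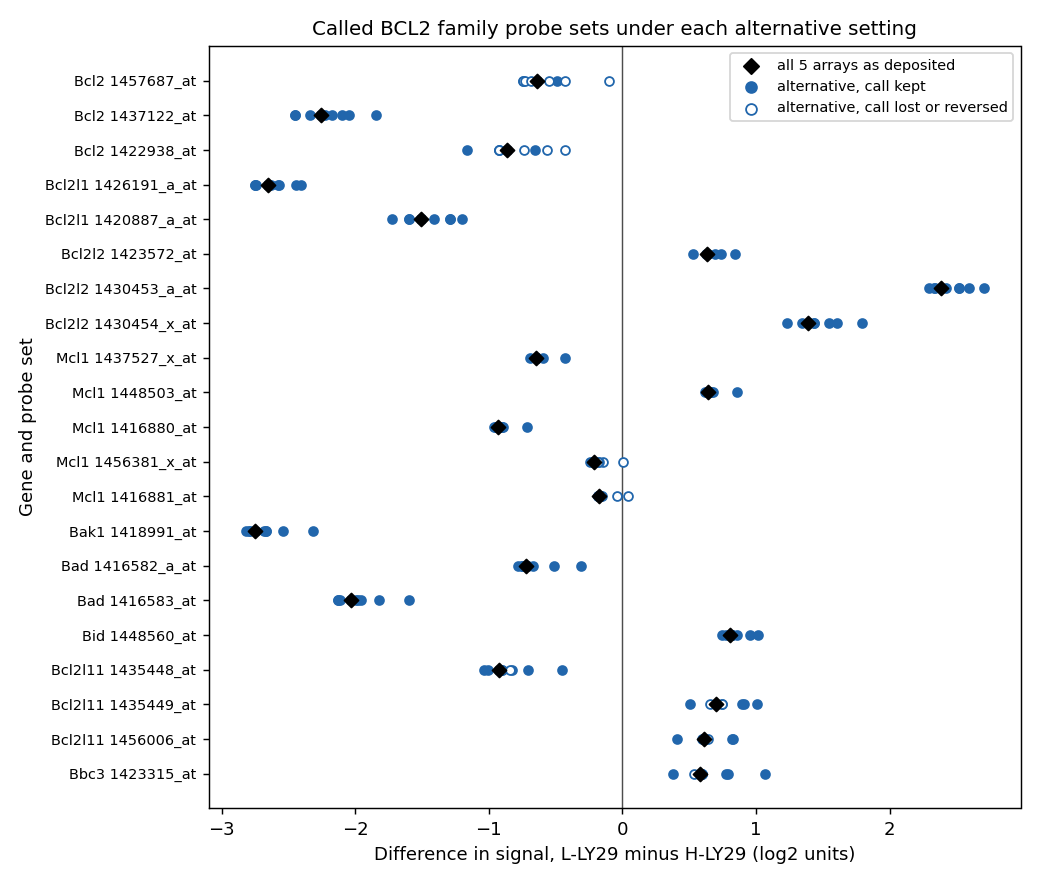
Difference in log2 signal, L-LY29 minus H-LY29, of the 21 called BCL2 family probe sets as deposited (black diamonds) and in each alternative setting (blue points, filled where the call was kept and open where it was lost or turned). *Bak1* 1418991_at, at −2.75 as deposited, keeps its call throughout, and the open points of *Mcl1* 1456381_x_at and 1416881_at reach past 0.

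Other genes around the BCL2 proteins were described from 8 lists, each gene by its brightest probe set. Of 79 genes tested, 25 were higher and 40 lower at the low dose and 14 did not pass, where 27.1% and 46.6% of all genes were higher and lower. Of the called genes, *Bcl2l13* alone turned direction under a rescaling.

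Among other multidomain and BCL2-like genes, 4 of 8 were tested, with 2 higher, 1 lower and a median of 0.85. *Bok*, an effector related to BAX and BAK, read 7.90, 7.90 and 7.89 in L-LY29 and 6.37 and 6.42 in H-LY29, at 1.501 (standard error 0.08, adjusted p = 8.92e-05). So of the pore-forming effectors with a reading, *Bak1* was lower and *Bok* was higher. *Bcl2l14* was higher by 2.21, from an H-LY29 mean as dim as the poly-A controls there, so its size is not read as a fold. A second *Bcl2l14* probe set did not pass. *Bcl2l13*, a mitophagy receptor, was lower (−0.45) as deposited and at 0.07 after quantile normalization, and its call was also lost without either H-LY29 array and without L-LY29 replicate 1 or 3.

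Among other BH3-only and BNIP genes, 8 of 9 were tested, with 2 higher, 4 lower and a median of −0.26. *Bmf*, a BH3-only gene tied to loss of attachment, read 8.04, 8.31 and 8.07 against 6.20 and 5.42, at 2.33 (standard error 0.26). Of its 3 probe sets 2 were higher, and 1458325_x_at was lower (−1.20). *Bik*, another BH3-only gene, was higher by 1.45 on 1 of its 3 probe sets, while 2 did not pass. *Bnip1*, of the endoplasmic reticulum, differed by −2.38, *Bnip3*, a hypoxia-induced mitophagy receptor, by −0.69, *Becn1*, the autophagy protein that BCL2 binds, by −0.65, and *Bnip2* by −0.43 on its brightest probe set, all lower. Of the 8 *Bnip2* probe sets 4 were higher and 1 lower, with 1453993_a_at at 1.01 and 1422491_a_at at 0.77. Without H-LY29 replicate 1, 4 genes of this list were higher. *Hrk*, a BH3-only gene of neurons, did not pass on its brighter probe set, at −0.09, and was higher on 1450366_at, at 2.60 (adjusted p = 0.00119). *Hrk* and *Bcl2l15*, which did not pass at −0.34 among all probe sets, are on the study's own list of genes common to both doses, which was chosen on these samples and is no independent evidence.

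Downstream of the pore, the apoptosome and mitochondrial release genes gave 3 higher and 4 lower of 9 tested, with a median of −0.20. *Htra2* and *Endog*, a protease and a nuclease released from the mitochondrion, were lower (−3.16 and −2.88). *Vdac1*, a channel of the outer membrane, was lower (−2.69), and all 5 of its probe sets were lower. *Apaf1*, the scaffold that cytochrome c activates, was lower at −1.48 (standard error 0.24), and its second probe set did not pass. *Diablo*, at 0.43, *Vdac3*, at 0.40, and *Cycs*, cytochrome c itself, at 0.22, were higher, and *Diablo* had a second probe set that was lower.

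Caspases, the proteases that dismantle the cell, gave 4 higher and 2 lower of 8 tested, with a median of 0.40. *Casp9*, the caspase that the apoptosome activates, read 6.06, 6.29 and 6.28 in L-LY29 and 10.48 and 10.01 in H-LY29, at −4.03 (standard error 0.17, adjusted p = 6.28e-05). Of its 3 probe sets 1 was lower, 1 was higher and 1 did not pass, so that size belongs to 1 reading. *Casp12* was lower (−1.31). *Casp8*, the caspase of death receptors, was higher by 1.46, *Casp2* by 1.08 and *Casp6* by 0.94. A second *Casp6* probe set did not pass. *Casp14*, a caspase of the outer skin, was higher by 5.32, with 10.14, 9.99 and 9.98 against 4.43 and 5.01. Its H-LY29 mean of 4.72 was under 4.77, the 40th percentile of probe set means, so the size is not read as a fold. Of its 2 probe sets 1 was higher and 1 did not pass. Of the 7 epithelial markers 5 were also higher in L-LY29, and a link of *Casp14* to them was not tested.

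Inhibitor of apoptosis genes gave 3 higher and 2 lower of 6 tested, with a median of 0.41. *Birc5* (survivin), which also serves cell division, read 4.77, 4.47 and 4.08 against 9.62 and 8.66, at −4.70 (standard error 0.36, adjusted p = 2.41e-04). *Xiap*, which blocks caspases directly, was higher by 1.87 on its brightest probe set, while of its 7 probe sets 2 were higher and 2 lower. *Birc2* was higher by 1.41 and *Naip2* by 0.55 (adjusted p = 0.0413), although *Naip2* did not pass in the fit of all probe sets. *Birc6* was lower (−1.26), and of its 6 probe sets 2 were lower and 1 higher.

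Of the death receptor genes 7 of 9 tested were lower and 1 was higher, at a median of −0.75. Over all genes, 46.6% were lower and 27.1% higher. *Tradd*, an adaptor of TNF receptors, was lower (−2.90), as were *Tnfrsf10b*, the receptor of TRAIL (−2.43), and *Tnfrsf21* (−1.46), although *Tnfrsf21* had a second probe set that was higher. *Tnf* was higher by 1.08, from an H-LY29 mean as dim as the poly-A controls there. With equal array medians 4 of the 9 genes were lower, after quantile normalization 5, and without either H-LY29 replicate 1 or H-LY29 replicate 2, 3. *Tnf* was not among the called genes without L-LY29 replicate 1.

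**Figure D5:**
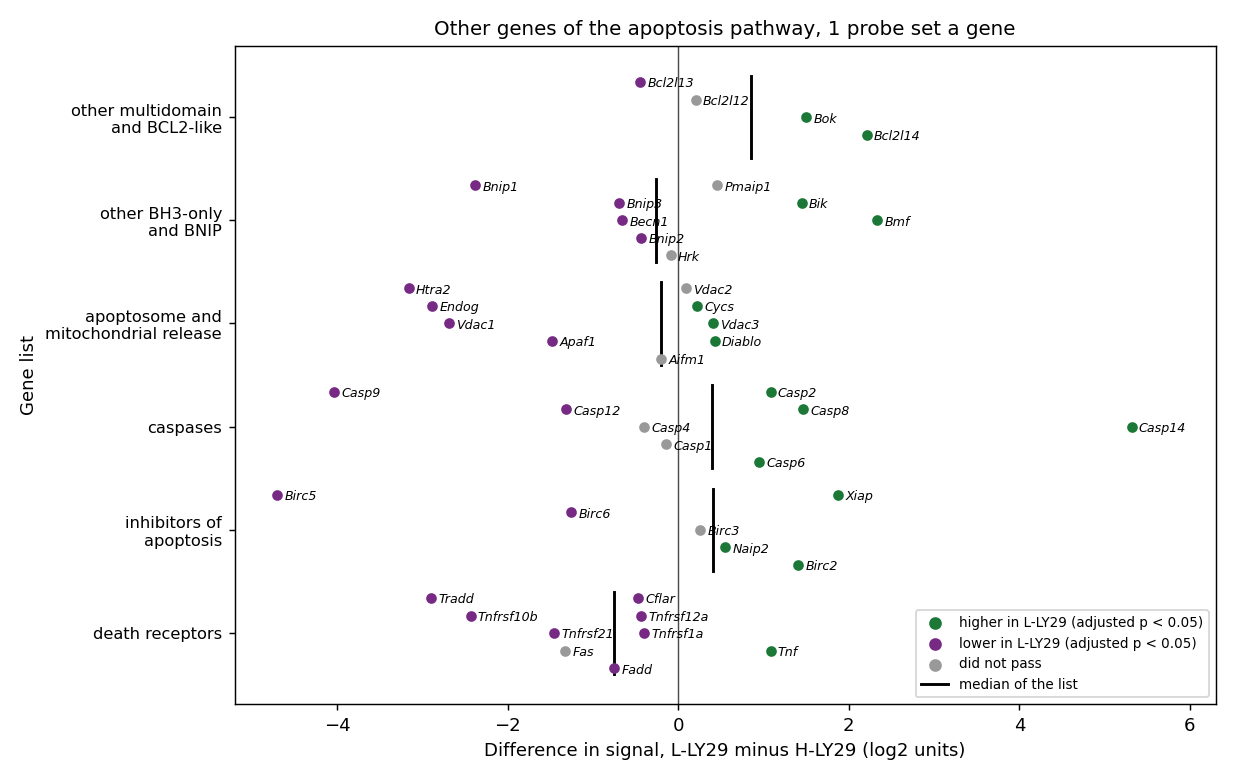
Difference in log2 signal, L-LY29 minus H-LY29, of the tested genes of 6 lists of the apoptosis pathway (points, 1 probe set a gene), with the median of each list as a black line. Green genes were higher in L-LY29, purple genes lower, and grey genes did not pass. *Casp14* lies at 5.32 and *Birc5* at −4.70.

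Kinases, ligases and binding partners of the BCL2 proteins were lower in 11 and higher in 5 of 20 tested, at a median of −0.38. *Pim3*, a kinase that like Akt can phosphorylate BAD, was lower (−3.23), with 10.15, 10.18 and 10.36 against 13.43 and 13.50. *Gsk3b*, which marks MCL1 for breakdown, was lower (−2.82), although 1 of its 6 probe sets was higher, and *Fbxw7*, a ligase subunit that acts on marked MCL1, was lower (−2.04). A second *Fbxw7* probe set did not pass. *Akt2* was higher by 1.27, with all 3 of its probe sets higher. *Bag1*, a chaperone partner of BCL2, was higher by 0.70, *Huwe1*, an MCL1 ligase, by 0.68, *Gsk3a* by 0.53 and *Ywhaq*, a 14-3-3 gene, by 0.37.

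Transcription factors that act on BCL2 family genes were lower in 9 and higher in 5 of 15 tested, at a median of −0.51. *Foxo3*, the FoxO factor best known for raising *Bcl2l11* and *Bbc3*, read 8.83, 8.50 and 8.77 in L-LY29 and 11.22 and 11.29 in H-LY29, at −2.55 (standard error 0.12, adjusted p = 7.17e-05), and 2 of its 3 probe sets were lower while 1 did not pass. In the same arrays *Bbc3* was higher and *Bcl2l11* was called both ways, and a link of either to *Foxo3* was not tested. *Stat5a*, which can raise *Bcl2l1*, was lower (−3.97) on 1 of its 2 probe sets, and the other did not pass. *E2f1* was lower (−1.68), with 2 of its 3 probe sets lower and 1 not passing. *Stat3*, which can raise *Mcl1*, was higher by 0.87, *Trp73* by 0.74, *Jun* by 0.74 (its other probe set was lower), *Myc* by 0.64 and *Rela* by 0.29.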

How the data were processed

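Groups were taken from the sample labels. Per the study's methods, RNA was run on Affymetrix mouse genome arrays and images were read in Affymetrix software. MAS-5, run in GeneSpring, was the normalisation by the authors, who deposited log2 signals. These were used unaltered. Whether that algorithm alone made values that are equal on several arrays was not tested. Precision is limited by the number of arrays.

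Of 45101 probe sets, 34958 name 1 gene, 932 several and 9211 none in the platform annotation. All but the 64 controls were tested with limma 3.58.1 under R 4.3.3 (lmFit, eBayes with an intensity trend, two-sided, Benjamini-Hochberg over 45037) with no filter, since every probe set of a member was wanted; 28 of the 32 pass the 40th percentile (4.77) of the mean. For counts of genes, probe sets under that percentile were left out and the brightest stood for its gene (12935 genes). The test was tried on simulated data first.

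Members, lists, tests and alternatives were chosen with earlier results of these data known. Every member is named with every probe set. From the other lists, up to 3 called genes with the largest difference and no overlap between doses are named, and all called genes of a direction that holds 5 or fewer; other named genes, namely *Hrk*, *Bcl2l15* and second probe sets, were chosen after their values were seen. Same-numbered arrays of the doses were not paired by the labels, and their deviations correlated at 0.02 and 0.03.

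The alternatives were quantile normalization, equal array medians, no intensity trend, floors at the 10th and 30th percentile, other filters (none, 40th or 60th percentile), averaging a gene's probe sets, a difference over 1 log2 unit, unadjusted p, the replicate number as a block, and each array left out. Promoter windows are RefSeq's, on GRCm38.p6.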

Additional observations from a re-analysis of the deposited data

How the results depend on the processing

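As deposited, 8 BCL2 family probe sets were higher and 13 lower in L-LY29. A difference over 1 log2 unit left 2 higher and 5 lower, a filter at the 60th percentile left 5 higher, and leaving out 1 array gave 5 to 10 higher (5 without L-LY29 replicate 1 or 2) and 9 to 12 lower. At the gene level, 2 members were higher and 5 lower; leaving out 1 array gave 1 to 4 higher (4 without H-LY29 replicate 2, 1 without L-LY29 replicate 1) and 3 to 5 lower (3 without either H-LY29 array). With the replicate block, 5 probe sets were higher and 9 lower, 1 member gene was higher and 5 lower, and *Bbc3* did not pass (adjusted p = 0.111 among probe sets and 0.0736 among genes); the arrays share only a number. Summed over the 8 other lists, calls stayed within 1.5 times of 25 higher and 40 lower in every setting, but single lists moved more, as the death receptor genes did from 7 lower to 3 without either H-LY29 array. *Bcl2* as a gene did not pass with equal array medians (adjusted p = 0.0754), after quantile normalization (0.632), or without H-LY29 replicate 1 (0.173), H-LY29 replicate 2 (0.103) or L-LY29 replicate 2 (0.0562).

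Directions turned as follows. With a gene's probe sets averaged, *Bcl2l1* was −1.34, *Bcl2l11* 0.17 and *Bid* 0.20. After quantile normalization, *Bid* 1417045_at, and with it the gene, was 0.15 and *Bid* 1447873_x_at −0.0268. With equal array medians, *Bak1* 1425716_s_at was 0.0550, and *Mcl1* 1416881_at 0.0382, 1456243_x_at 0.17 and 1456381_x_at 0.00304. With 1 array left out, *Bcl2l1* 1420888_at, and the gene, ran from −0.0344 (without H-LY29 replicate 1) to 0.30 (without H-LY29 replicate 2), *Bcl2l11* 1426334_a_at from −0.13 (without H-LY29 replicate 2) to 0.62 (without H-LY29 replicate 1), and *Mcl1* as a gene from −0.65 (without L-LY29 replicate 1) to 0.65 (without H-LY29 replicate 2; 0.64 without replicate 1). For *Mcl1* another probe set became the brightest; otherwise the cause was not tested. Of 465 comparisons of single probe sets, 392 kept direction and side of the threshold, 54 lost a call, 11 gained one and 8 turned. Low signal limits the probe sets of *Bcl2* and *Bid* named above as being as dim as the poly-A controls. It also limits *Bcl2l11* 1456006_at, which read 4.28 on H-LY29 replicate 2, where poly-A controls reached 4.30. Only 2 arrays set the precision of every H-LY29 mean.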
